A study of Mus musculus with 2 samples.

Results

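Rab proteins are small GTPases that mark the membranes of a eukaryotic cell. Each member switches between a GDP-bound form held in the cytosol by a GDP dissociation inhibitor and a GTP-bound form that sits on one kind of membrane and recruits effectors, which move, tether or sort vesicles there. Exchange factors switch a Rab on, TBC-domain proteins speed its GTP hydrolysis, and lipid tails added to cysteines at the C-terminus anchor it. In neurons the family is known for synaptic vesicle release (Rab3), endosomal recycling of receptors (Rab4, Rab5, Rab11) and axonal transport of late endosomes (Rab7).

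The 59 genes described here are the mouse genes with a protein-coding transcript whose symbol is Rab followed by a number and, where there is one, a single letter and digit. They were taken by name, and the rule that picks them uses no measured value, out of 55536 annotated genes, of which 22015 were protein-coding and outside the mitochondrial genome. Such genes are called nuclear protein-coding genes below.

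The samples were 2 libraries of a single group, total RNA from hippocampus of females of the B6CASTF1/J strain, the F1 hybrid of C57BL/6J and CAST/EiJ mice, aged 25 days. Ribosomal RNA had been reduced, 300 ng of RNA went into each library and ERCC spike-in RNAs were added. The tissue term in the labels is a layer of the hippocampus, without saying which. The replicates had separate tissue samples but the same donor entry in the labels, so the spread between them may be partly technical. With 1 group there was nothing to test between conditions, and every comparison below is between genes, between the replicates or between the pair of deposited quantifications.

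Expected counts on annotated genes, the depth behind each value, summed to 34788755 in replicate 1 and 41030267 in replicate 2. Markers of excitatory neurons (Slc17a7, Nrgn, Camk2a), CA1, dentate granule cells, interneurons, astrocytes, oligodendrocytes and microglia were all above 1 TPM in both libraries. Choroid plexus markers summed to 26.9 TPM in replicate 1 and 59.2 TPM in replicate 2, through Ttr at 23.5 and 55.1 TPM. Kl did not rise, at 3.43 and 3.38 TPM, and Folr1 stood at 0 and 0.76 TPM, from 0 and 14 counts. The part of that difference in the values below was not tested.

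What unites the family in sequence is its C-terminal end, shown here because it is the lipid anchor and because it splits the family into classes. The last 15 coding bases before the stop codon, 5′ to 3′, from the GENCODE M21 transcripts, are given for abundant members of each class, with cysteine codons in capitals; not every abundant member is printed.
Rab3a: caggatTGTgccTGC
Rab6b: ggcggcTGCtccTGT
Rab6a: ggcggcTGTtccTGC
Rab7: gaaagcTGCagtTGT
Rab2a: gggggaggcTGCTGT
Rab10: aagagcaagTGCTGC
Rab11b: TGCTGCcagagcctg
Rab11a: TGCTGTcagaacatc
Rab5c: cagTGCTGCagcaac
Rab28: atgTGTgcagtgcag
Rab40b: agcTGCaaaatttct

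All 59 members had such a cysteine codon. Each gene was placed by 1 coding sequence, and its whole TPM was counted in that class, also where other transcripts held most of it. Rab11b, for example, was placed by Rab11b-201, which held 4.95% and 4.42% of its TPM. In 20 members the coding sequence ended in cysteine, any codon, cysteine; these held 1228 TPM of the mean, 49.8% of the family, and included Rab3a, both Rab6 genes and Rab7. Another 15 members ended in a pair of adjacent cysteine codons (499 TPM, 20.3%), and 15 had the pair followed by 1 to 3 further codons (518 TPM, 21.04%). The remaining 9 had a single cysteine codon followed by 3 codons (218 TPM, 8.87%), the layout of a CAAX-type end, with Rab18 the most abundant of them. These sums depend on the number of members in a class and on a few abundant genes, such as Rab3a at 338 TPM. The level of a typical member was not compared between the classes. Rab6a and Rab6b differed in these 15 bases only in the last base of each cysteine codon.

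Levels are given as TPM, which corrects for transcript length and library total and so can be compared between genes. The 59 genes together took 2463 TPM in replicate 1 and 2465 TPM in replicate 2 (2464 ± 1.21, SD, n = 2), from 145976 and 179316 expected counts. That was 0.568% and 0.587% of the TPM of nuclear protein-coding genes, and 0.624% and 0.644% in the second deposited quantification, which is in the kallisto format where the first is in the RSEM format. At 1 TPM or more in both libraries 50 of the 59 members were detected, against 57.6% of nuclear protein-coding genes. The median member stood at 19.1 TPM, and the median nuclear protein-coding gene at 3.21 TPM. Abundance was concentrated, in that the top 5 members held 39.04% of the family's TPM and the top 10 held 58.4%, with 7 members at a mean of 100 TPM or more and 40 at 10 TPM or more.

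**Figure D1:**
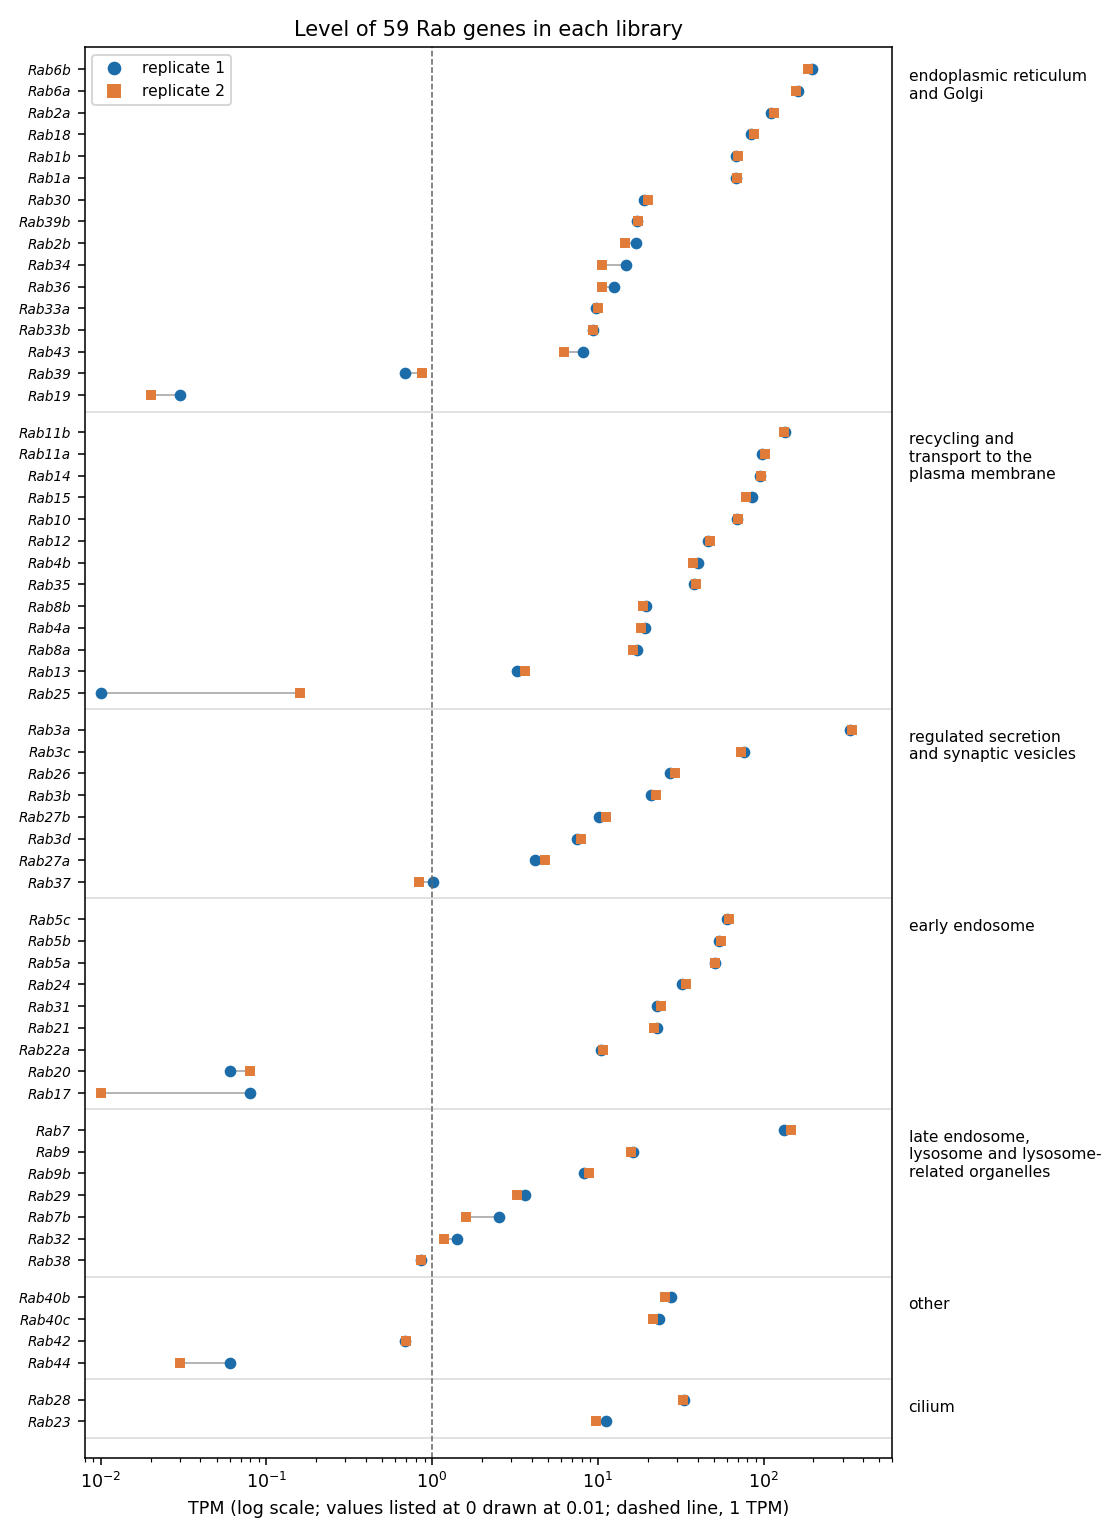
Level of each Rab gene in TPM on a log axis, grouped by the compartment the member is best known for; circles are replicate 1, squares replicate 2, and the dashed line marks 1 TPM. The markers of most members nearly coincide, Rab3a stands alone at the top at 333 and 342 TPM, and 9 members lie left of the line in at least 1 library.

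Members of regulated secretion and synaptic vesicles numbered 8 and summed to 486 TPM, 19.7% of the family. Rab3a, the synaptic vesicle Rab that binds RIM and rabphilin, was the most abundant Rab gene at 333 and 342 TPM in replicates 1 and 2 (338 ± 6.63, SD, n = 2), and it ranked first in the second quantification too. Rab3c, also on synaptic vesicles, stood at 76.4 and 73.3 TPM. Rab3b, a secretory vesicle member, stood at 20.96 and 22.4 TPM, and Rab3d, best known from exocrine and endocrine granules, at 7.52 and 7.93 TPM. The order within the Rab3 group was therefore Rab3a, Rab3c, Rab3b, Rab3d, and no 2 of the genes overlapped in their library values. Rab3a was 4.51-fold above Rab3c, 15.6-fold above Rab3b and 43.7-fold above Rab3d, and the same order held in both libraries of the second quantification.

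The rest of this class was lower. Rab26, which acts on secretory granules and synaptic vesicles, stood at 27.3 and 29.3 TPM, whereas its paralog Rab37, known from mast cell granules, stood at 1.01 and 0.83 TPM, or 30.8-fold lower by the means. Rab27b and Rab27a dock secretory organelles at the plasma membrane. Rab27b was at 10.2 and 11.2 TPM and Rab27a at 4.18 and 4.82 TPM, a ratio of 2.37 between the means.

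Members of the endoplasmic reticulum and Golgi apparatus made up the largest class by count and level, with 16 genes and 792 TPM, 32.1% of the family. The Rab6 genes, which direct Golgi transport, ranked next after Rab3a by mean TPM in the RSEM-format table, whereas Rab7 ranked second in the second quantification. Rab6b, the form enriched in neurons, stood at 197 and 184 TPM and Rab6a, the ubiquitous form, at 162 and 157 TPM. Their library values were apart, but the order turned in the second quantification, where Rab6b was at 0.78 and 0.74 of Rab6a. Which Rab6 gene stood higher was thus not settled.

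Rab2a, which works between the endoplasmic reticulum and the Golgi, stood at 111 and 116 TPM, 7.18-fold above its paralog Rab2b at 17.0 and 14.6 TPM. Rab18, a member of the endoplasmic reticulum and lipid droplets, was at 84.2 and 87.5 TPM. Rab1b and Rab1a, which drive transport from the endoplasmic reticulum to the Golgi, were level with each other, at 68.5 and 70.4 TPM for Rab1b and 68.0 and 69.5 TPM for Rab1a, and their library values overlapped. Their coding sequences shared 77.6% of aligned bases. Further Golgi members were Rab30 at 19.04 and 19.95 TPM and Rab39b, a gene of X-linked intellectual disability in humans, at 17.2 and 17.4 TPM. The autosomal paralog Rab39 stood at 0.69 and 0.87 TPM, 22.2-fold below Rab39b. Rab33a and Rab33b, Golgi members of which Rab33b also binds the autophagy protein Atg16l1, stood at 9.81 and 10 TPM and at 9.38 and 9.36 TPM.

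Recycling and transport to the plasma membrane had 13 members and 665 TPM, 27.0% of the family. Rab11b and Rab11a, the main Rabs of the recycling endosome, stood at 136 and 133 TPM and at 97.9 and 103 TPM. Rab11b was higher in both libraries and in both quantifications, by 1.34-fold. The remaining gene of that group, Rab25, which is known from epithelia, had 0 counts in replicate 1, which allows a level of up to 0.0862 CPM, and 2 counts in replicate 2. Epithelial markers Epcam, Cdh1 and Krt8 were all under 1 TPM and summed to 0.25 and 0.54 TPM.

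Rab14, which links the trans-Golgi network and endosomes, was at 95.7 and 96.1 TPM, and Rab15, a recycling endosome member, at 85.5 and 78.4 TPM. Rab10 led the Rab8/10/13 group, whose products carry vesicles from the Golgi and endosomes to the surface. It stood at 69.3 and 70.1 TPM, against 19.4 and 18.8 TPM for Rab8b, 17.4 and 16.2 TPM for Rab8a, and 3.26 and 3.62 TPM for Rab13, which is known from epithelial junctions. Rab10 was thus 3.64-fold above Rab8b and 20.3-fold above Rab13. Rab4b and Rab4a serve fast recycling; Rab4b was at 40.3 and 37.6 TPM, 2.08-fold above Rab4a at 19.3 and 18.3 TPM. Rab35, another fast recycling member, stood at 38.2 and 39.3 TPM, and Rab12, a substrate of the kinase LRRK2, at 46.3 and 47.2 TPM.

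Early endosome members numbered 9 and summed to 256 TPM. The Rab5 genes, which control endosome fusion, lay close together. Rab5c was at 60.1 and 61.9 TPM, Rab5b at 54.1 and 55.3 TPM, and Rab5a at 50.8 and 51.3 TPM. These 3 genes did not overlap in their library values, yet the largest step among them was 1.19-fold, between Rab5c and Rab5a; in the second quantification Rab5c was 1.99-fold and 2.10-fold above Rab5a. Rab24, which takes part in autophagy, stood at 32.1 and 33.8 TPM. Rab31 was at 22.6 and 24.0 TPM, 2.21-fold above its paralog Rab22a at 10.4 and 10.7 TPM, both of which act between the trans-Golgi network and endosomes, and Rab21, known for integrin traffic, at 22.9 and 21.9 TPM. Rab17, an epithelial member, and Rab20 had at most 3 counts in any library.

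Late endosomes, lysosomes and related organelles had 7 members and 172 TPM, 6.96% of the family, most of it from Rab7. Rab7, which directs late endosomes to lysosomes, was at 132 and 146 TPM, 66.9-fold above Rab7b at 2.55 and 1.61 TPM. Rab9, which returns receptors from late endosomes to the Golgi, stood at 16.4 and 15.9 TPM, 1.88-fold above Rab9b at 8.28 and 8.87 TPM. Rab29, which recruits LRRK2, was at 3.62 and 3.26 TPM. Rab32 and Rab38 act in melanosome formation, and they stood at 1.42 and 1.18 TPM and at 0.86 TPM in both libraries. Melanocyte markers Tyr, Dct and Mlana were all under 1 TPM and summed to 0.52 and 0.73 TPM.

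Of the cilium-related members, Rab28 stood at 33.1 and 32.7 TPM and Rab23, an inhibitor of hedgehog signalling, at 11.2 and 9.75 TPM. The Rab40 genes, whose products hold a SOCS box and act in ubiquitin ligases, were near each other, with Rab40b at 27.6 and 25.4 TPM and Rab40c at 23.5 and 21.5 TPM. Rab42 stood at 0.69 and 0.70 TPM. Rab19, Rab44, Rab17, Rab20 and Rab25 were the 5 members with at most 5 expected counts in each library, too few to give a level.

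The order of the levels was resolved for some neighbours only. Of 58 neighbouring pairs in the order by mean TPM, 28 had library values that did not overlap, and among the first 15 members 10 of the 14 steps did. The 4 unresolved steps there were Rab7 with Rab11b, Rab18 with Rab15, Rab10 with Rab1b and Rab1b with Rab1a. This counts the spread between libraries of the first table only. In the second quantification 19 of the 28 steps kept their direction in both libraries, and 5 of the 10 among the first 15 members. The 5 that did not were Rab6b over Rab6a, Rab6a over Rab7, Rab2a over Rab11a, Rab14 over Rab18 and Rab1a over Rab5c.

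Both libraries were then set against each other, as a description of the spread, with an exact Clopper-Pearson 95% interval that covers counting error only. The 48 members whose expected counts in both libraries together reached 200 entered. Replicate 2 was at least 2-fold higher in 0 members and at least 2-fold lower in 0, against 0.0744% and 0.124% of 12099 nuclear protein-coding genes with as many counts. In 39 members (81.3%) the libraries lay within 1.1-fold of each other, against 54.1% of those genes. Among the 32 members with at least 2000 counts it was 31, against 60.3% of the 6063 nuclear protein-coding genes as deep. With TMM scaling the corresponding figures were 27 of the 32 members and 68.8% of genes. In bulk tissue, fewer cells of a type and less RNA per cell cannot be told apart in any of these ratios.

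The median log2 ratio of replicate 2 over replicate 1 was 0.016 for the members and -0.068 for nuclear protein-coding genes, of which 64.4% were lower in replicate 2. Among the members 26 were higher and 22 lower; on TMM-scaled counts the split was 39 and 9, so the direction of a member near 0 depends on the scaling.

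**Figure D2:**
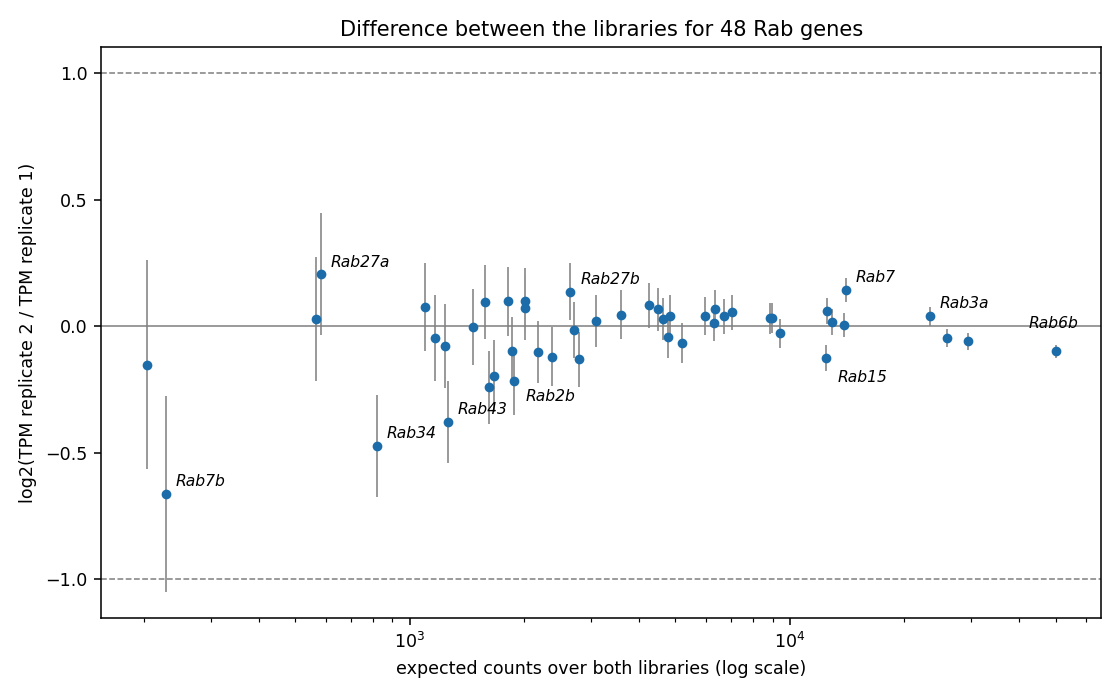
Log2 ratio of TPM in replicate 2 over replicate 1 for the 48 Rab genes that reached 200 expected counts, against that summed count on a log axis; bars are exact 95% counting intervals and dashed lines mark 2-fold. Points crowd around 0 to the right, and the lowest ratios, of Rab7b, Rab34 and Rab43, have under 2000 counts.

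The members farthest below 0 by TPM in the RSEM-format table were Rab7b, Rab34, Rab43, Rab36 and Rab2b. Rab7b, a late endosome to Golgi member, fell by 0.66 on the log2 scale (ratio 0.63, interval 0.48 to 0.83), although its counts were 115 and 113; on TMM-scaled counts, which leave out effective length, the value was -0.26. It was the 1 member past 1.5-fold; 1.91% of nuclear protein-coding genes were that much lower in replicate 2 and 0.372% that much higher. Rab34, a Golgi and ciliogenesis member, was at 14.7 and 10.6 TPM, a log2 ratio of -0.47 (ratio 0.72, interval 0.63 to 0.83), with -0.33 under TMM scaling and a lower value, -0.64, in the second quantification. Its library values overlapped those of its paralog Rab36, at 12.5 and 10.6 TPM. Rab43, a Golgi member, was at 8.11 and 6.24 TPM, a log2 ratio of -0.38. Rab43 had -0.13 under TMM scaling and -0.17 in the second quantification. It was also the only detected member whose deposited posterior SD of the count exceeded 1% of the count, and it shares its strand with the overlapping readthrough gene Gm45140. Rab36 and Rab2b had log2 ratios of -0.24 and -0.22. Under TMM scaling these were -0.10 and -0.04. In the second quantification they were -0.21 and 0.03, so the sign for Rab2b turned there.

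Farthest above 0 by TPM in the RSEM-format table were Rab27a, Rab7, Rab27b, Rab26 and Rab3b. The values were 0.21 for Rab27a, 0.14 each for Rab7 and Rab27b, and 0.10 each for Rab26 and Rab3b. Under TMM scaling they were 0.12 for Rab27a, 0.11 for Rab7, 0.18 each for Rab27b and Rab3b, and 0.19 for Rab26. Rab9b, at 0.19 on that scale, stood above Rab27a and Rab7 there. In the second quantification the values were 0.18 for Rab27a, 0.13 for Rab7, 0.15 for Rab27b, 0.20 for Rab26 and 0.10 for Rab3b. The interval of Rab27a, 0.98 to 1.36 as a ratio, held 1, whereas that of Rab7, 1.07 to 1.14, did not. Counting intervals left out 1 for 16 of the 48 members, all of them smaller differences than 2-fold. The same share over nuclear protein-coding genes was not taken, so this count does not set the family apart from other genes.

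The levels were next set against the second deposited quantification, after scaling both to the same total over nuclear protein-coding genes. None of the 50 detected members differed by more than 2-fold, and 3 differed by more than 1.5-fold, all higher in the second table. The same shares over nuclear protein-coding genes were not taken. The 3 members were Rab7 by 0.81, Rab18 by 0.64 and Rab5c by 0.63 on the log2 scale. At the other end Rab8a was lower by 0.42.

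**Figure D3:**
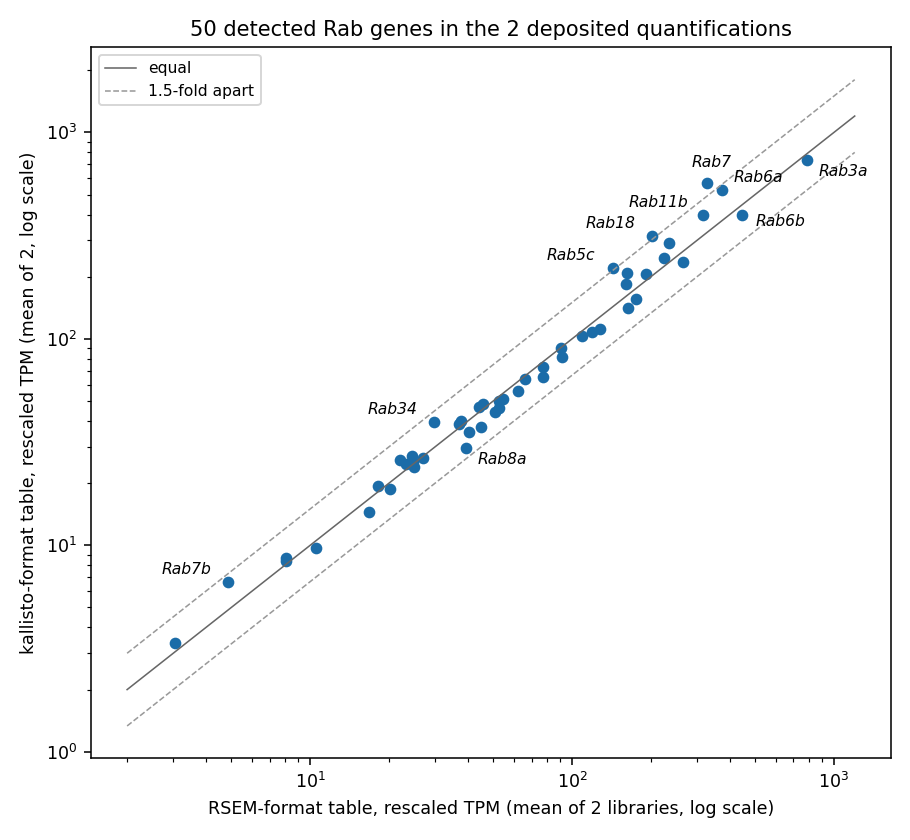
Mean TPM of the 50 detected Rab genes in the RSEM-format table (horizontal) and the kallisto-format table (vertical), each rescaled over nuclear protein-coding genes, on log axes; the solid line marks equal values and the dashed lines a 1.5-fold difference. Most points hug the solid line, with Rab7, Rab18 and Rab5c above the upper dashed line.

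In these genes the second table placed much of the TPM on a short transcript model. For Rab7 the 550-base model Rab7-207 held 46.6% and 49.96% there and 4.04% and 5.11% in the RSEM-format table. For Rab5c the 441-base model Rab5c-203 held 45.1% and 47.1% there against 0.65% and 0.54%. For Rab18 a 535-base model with no coding sequence held 41.7% and 37.2% there against 0% in both libraries. The same was seen in Rab6a, whose order with Rab6b turned, since the 567-base retained-intron model Rab6a-204 held 39.6% and 39.5% in the second table and 2.50% and 1.31% in the first. The share of Rab5c-203 came from 163 and 225 estimated counts, whereas the coding transcript that led in both tables had 2361 and 3078. In Rab11a it was the RSEM-format table that favoured a short model. There the 462-base Rab11a-206 held 41.05% and 48.35% of TPM, from 12.6% and 15.2% of the gene's counts. It held 0.70% and 4.07% of TPM in the second table.

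Transcript make-up was examined in the 45 members with a mean of at least 5 TPM. The leading transcript, the one with the largest share of the gene's TPM, was annotated as protein-coding in 43 of them, against 93.5% of nuclear protein-coding genes at that level. It held over 50% in 39 members, against 71.5%. The leading transcript was the same in the second quantification for 35 of the 45 members (background 78.2%). The leading coding sequence, after transcripts with an identical coding sequence were summed, was the same for 42, with no background taken.

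**Figure D4:**
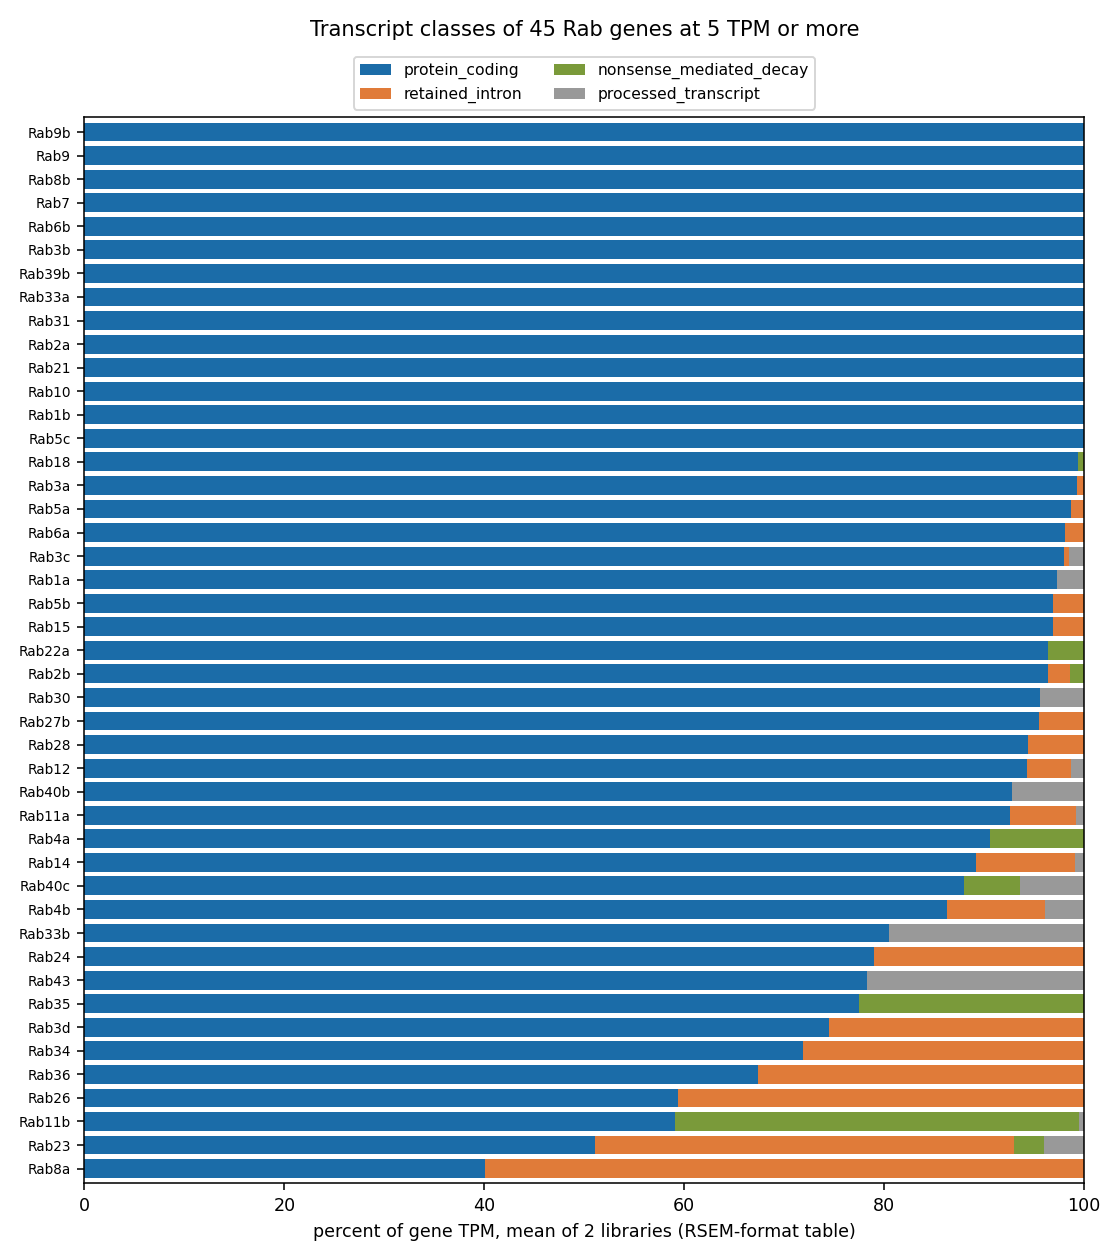
Share of each gene's TPM by annotated transcript class, mean of both libraries, for the 45 Rab genes at 5 TPM or more; bars are stacked to 100% and sorted by the protein-coding share. Protein-coding transcripts fill most bars, and Rab8a, Rab23, Rab11b and Rab26 have the largest shares of other classes.

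In Rab3a the leading transcript differed between the tables and the coding sequence did not. Rab3a-201 held 78.9% and 77.8% of TPM in the RSEM-format table, and another transcript led in the second table with 47.2% and 37.9%. These and 2 more transcripts carry the same coding sequence of 660 bases, which held 99.1% and 99.2% in the first table and 98.97% and 99.5% in the second. The exceptions to a shared leading coding sequence were Rab11a, Rab11b and Rab12. For Rab12 the TPM went to Rab12-205, with 729 coding bases, in one table (94.1% and 94.4%) and to Rab12-201, with 873, in the other (75.9% and 94.1%).

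The tables also differed for Rab11b. Its leading transcript in the RSEM-format table, Rab11b-204, is annotated for nonsense-mediated decay and held 41.9% and 38.9%, but was listed at 0 in the second table, where the noncoding Rab11b-205 held 48.4% and 49.9%. The pseudogene Rab11b-ps2 stood at 3.36 and 4.88 TPM in the first table and at 77.8 and 86.6 TPM in the second. The full-length coding transcript Rab11b-201, of 6109 bases, held 4.95% and 4.42% of TPM but 23.4% and 20.1% of the gene's counts. Rab8a was the other member led by a noncoding transcript, a 542-base retained-intron model with 60.1% and 59.8% of TPM. In the second quantification it held 47.5% and 43.8%, and the coding transcript Rab8a-201 led with 52.5% and 56.2%. By counts in the first table that model held 13.05% and 12.89%, and the 4550-base Rab8a-201 held 87.0% and 87.1%.

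Coding choices were visible where a member has alternative exons. The Rab6a gene carries a duplicated coding exon of 106 bases on chromosome 7, the known source of a pair of Rab6a forms. Both copies are printed 5′ to 3′ on the + strand (mm10), from chr7:100629666-100629771 for the first and chr7:100629838-100629943 for the second, because one copy was used far more than the other. Capitals mark the 30 bases that differ.
Rab6a first copy: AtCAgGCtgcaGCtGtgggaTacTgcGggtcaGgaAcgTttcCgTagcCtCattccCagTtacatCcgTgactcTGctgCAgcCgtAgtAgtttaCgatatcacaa
Rab6a second copy: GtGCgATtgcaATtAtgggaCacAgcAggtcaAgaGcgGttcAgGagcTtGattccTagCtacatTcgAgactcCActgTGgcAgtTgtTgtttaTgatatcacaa

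The copies were 71.7% identical. Transcripts with the second copy held 88.8% and 89.7% of the TPM of the pair, and those with the first held 11.2% and 10.3%. In the second quantification the second copy held 92.2% and 93.7%. By expected counts it was 90.7% and 91.5%, so this choice of copy held on all 3 measures. These are shares of the exon copies and not of the full-length Rab6a forms. In the RSEM-format table the whole first-copy share lay on Rab6a-203, with 525 coding bases. Rab6a-202, with 624 coding bases like Rab6a-201 of the second copy, stood at 0% there in both libraries. In the second quantification the mean share of Rab6a-202 was 1.16% of the gene's TPM.

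Rab28 has alternative last coding exons that both end in a single cysteine codon followed by 3 codons, on the - strand of chromosome 5 (mm10). They lie at chr5:41625773-41625862 for Rab28-201 and chr5:41626995-41627081 for Rab28-203, with cysteine codons in capitals.
Rab28-201: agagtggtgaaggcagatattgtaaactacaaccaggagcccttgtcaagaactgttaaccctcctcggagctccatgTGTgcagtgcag
Rab28-203: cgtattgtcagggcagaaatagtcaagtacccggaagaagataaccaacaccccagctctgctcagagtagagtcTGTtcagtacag

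Rab28-201 held 67.4% of the gene's TPM in both libraries and Rab28-203 held 17.0% and 16.7%. The second quantification gave 56.4% and 67.4% for the former and 20.9% and 20.3% for the latter, so Rab28-201 led in every case.

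Retained-intron transcripts took part of the TPM of 20 members at 5 TPM or more. Their median share was 8.21% in replicate 1 and 3.99% in replicate 2. The share was lower in replicate 2 in 18 of the 20 members, against 80.5% of 6201 nuclear protein-coding genes with such transcripts. That share of members was near the background. The median difference within a gene, replicate 2 minus replicate 1, was -2.025 points for members and -2.18 points for nuclear protein-coding genes. The fall in a typical member was thus not larger than the background, and less than the 2 medians imply. Rab26 had 45.4% and 35.9%, Rab34 had 31.8% and 24.5%, and Rab24 had 25.0% and 17.1%. Rab4b was higher in replicate 2, at 9.58% and 10.2%. In the second quantification 16 of the 20 were lower in replicate 2, against 78.0% of genes. Median shares there were 11.995% and 9.73% for members, and 11.57% and 8.64% for nuclear protein-coding genes. The retained-intron share of Rab34 was there 24.9% and 26.3%.

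**Figure D5:**
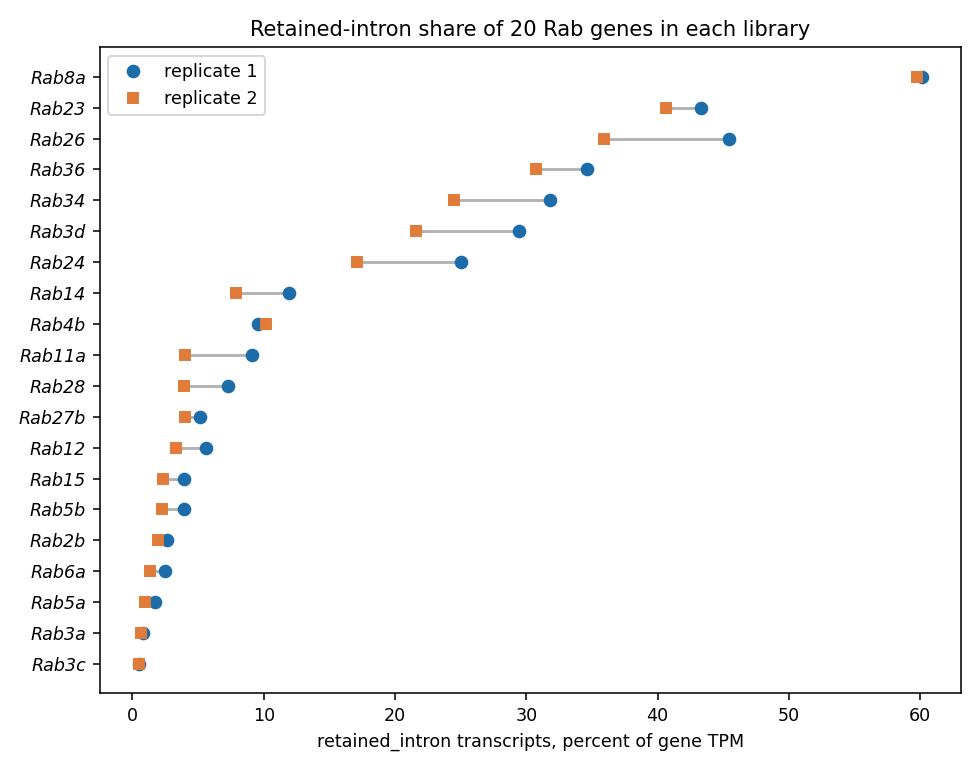
Share of each gene's TPM in retained-intron transcripts for the 20 Rab genes at 5 TPM or more that have them; circles are replicate 1 and squares replicate 2, joined by a line. The squares lie left of the circles for nearly all genes, with the widest gap in Rab26, from 45.4% to 35.9%.

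Promoter sequences of 300 bases, from 250 before to 50 after the start, were found for 48 of the 59 members in a RefSeq table (GRCm38.p6), in all 60 promoters, since some genes have several. A gene is counted as holding a motif where any of its promoters does. The GC box GGGCGG, searched on both strands, was in 36 of them (75%), against 38.2% of all 27025 genes in the table and 51.0% of its 16522 nuclear protein-coding genes. CCAAT, both strands, was in 26 (54.2%), against 42.1% of nuclear protein-coding genes, and TATAAA in 4 (8.33%), against 14.3%. The full cyclic AMP response element TGACGTCA was in 2 members, Rab5a and Rab25 (4.17%), against 2.64%. CACGTG was in 6 (12.5%), against 9.18%. These are matches of letters and not binding sites.

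The promoters of the most and one of the least abundant members are given for contrast, with the matched motifs in capitals. That of Rab3a, chr8:70754453-70754752 on the + strand, has 2 GC boxes, 2 CCAAT matches and 18 CG pairs, and transcripts starting within 100 bases of its start site held 98.2% and 98.6% of the gene's TPM, or 69.6% and 70.1% in the second quantification. A further promoter of Rab3a in the table, with 22 CG pairs, had no transcript starting within that distance. That of Rab25, chr3:88548230-88548529 on the - strand, has 9 CG pairs and the response element.
Rab3a promoter: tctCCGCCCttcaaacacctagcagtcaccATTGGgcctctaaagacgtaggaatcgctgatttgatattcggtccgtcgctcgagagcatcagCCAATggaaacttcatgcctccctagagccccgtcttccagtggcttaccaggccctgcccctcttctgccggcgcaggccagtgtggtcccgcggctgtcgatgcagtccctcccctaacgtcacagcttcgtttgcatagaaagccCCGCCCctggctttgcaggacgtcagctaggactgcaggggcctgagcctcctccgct
Rab25 promoter: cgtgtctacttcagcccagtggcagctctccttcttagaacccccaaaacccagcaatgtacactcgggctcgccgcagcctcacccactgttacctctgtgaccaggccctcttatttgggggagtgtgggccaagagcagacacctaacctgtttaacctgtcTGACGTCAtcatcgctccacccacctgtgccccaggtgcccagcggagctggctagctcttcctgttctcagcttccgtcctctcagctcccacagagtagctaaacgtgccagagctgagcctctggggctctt

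With the promoter richest in CG pairs taken for each gene, the median number of CG pairs was 24.5 for the members and 15 for nuclear protein-coding genes. That number ranged from 5 to 45 over the members and did not follow abundance alone, since that of Rab11b (134 TPM) had 12 and that of Rab23 (10.5 TPM) had 45.

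The proteins that load, switch and read the Rabs were taken from lists of 131 genes, of which 129 were found and 114 reached 1 TPM in both libraries. Of 115 with at least 200 counts, replicate 2 was 2-fold higher in 0 and 2-fold lower in 0. By TPM, 90 of these 115 genes were lower in replicate 2 and 24 higher, with a median log2 ratio of -0.11. Of nuclear protein-coding genes 64.4% were lower. The direction depends on the scaling here too. Gdi2 and Rabggtb were lower by TPM, yet their TMM-scaled counts went from 5075 to 5330 and from 946 to 980. Others stayed lower on that scale, such as Rph3a, from 9887 to 9103. The split on TMM-scaled counts was not taken.

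Among the genes that load Rabs onto membranes and take them off, Gdi2, a GDP dissociation inhibitor that keeps Rabs in the cytosol, stood at 113 and 109 TPM, and Rabggtb, the beta subunit of the enzyme that adds the lipids, stood at 30.1 and 29.7 TPM. Among exchange factors Dennd5a, at 100.3 and 89.2 TPM, and Madd, which activates Rab3, at 101 and 82.3 TPM, were highest and overlapped in their library values, and Madd was above Dennd5a in both libraries of the second quantification. They were followed by Rin1, a Rab5 activator, at 48.4 and 44.4 TPM. Of the TBC-domain and related GTPase-activating proteins Rabgap1l stood at 104.6 and 86.9 TPM, Tbc1d9b at 45.2 and 43.2 TPM and Evi5l at 44.97 and 39.9 TPM.

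The effectors of the synapse were led by Syn1, synapsin I, at 214 and 193 TPM, Rims1, which links Rab3a to the active zone, at 110 and 96.4 TPM and Rph3a, rabphilin, at 94.9 and 82.6 TPM. All 3 were lower in replicate 2, whereas Rab3a was higher by 0.04 on the log2 scale. Effectors on endosomes and the Golgi were led by Rab11fip4, a Rab11 effector, at 72.2 and 67.8 TPM, Rufy3 at 68.7 and 66.0 TPM and Rabep1, a Rab5 effector, at 51.0 and 47.98 TPM. By TPM, the lowest ratios taken on the lists were those of Dennd3, an exchange factor for Rab12, at a log2 ratio of -0.91, and Rab11fip1, at -0.79. The counts of Dennd3 were 228 and 241. TMM-scaled counts, which leave out effective length, were 247 and 222 for Dennd3 and 171 and 120 for Rab11fip1. On that scale Hps1, another exchange factor, fell further than Dennd3, from 372 to 253.

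Other annotated genes touch the members. In all 32 members overlap another gene, 17 of them on the same strand. The readthrough gene Gm20388, which overlaps Rab4a on the same strand, was listed with no expected count in replicate 1 and with 415 in replicate 2, while Rab4a itself had 558 and 676. For 48 members the deposited posterior SD of the count was 0 in both libraries, that is, their deposited counts carried no uncertainty of assignment. No share over all genes was taken for the overlaps or for these 48 members.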

How the data were processed

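Per the labels, the assembly is mm10; the deposited notes name GENCODE M21 as the annotation. For each library the authors deposited gene and transcript tables in the RSEM format, with expected counts, TPM and each transcript's percent of its gene's TPM, and a second transcript table in the kallisto format with estimated counts and TPM. The aligner is not given in the sources used here. The deposited posterior standard deviation of the count was used as given. The effect of CAST/EiJ alleles on values made with a C57BL/6J build was not tested.

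Levels are deposited TPM, mean and SD over 2 libraries. Ratios were taken where a gene's expected counts in the libraries together reached 200, with a floor of 3 counts, a 2-fold rule and exact Clopper-Pearson 95% intervals. The rule was tested on simulated counts with counting error only, for changes larger than 2-fold in genes with more counts than the minimum. That setting does not show how the rule does near 2-fold, near the minimum of counts or with shifts in effective length. TMM factors came from edgeR 4.0.16 and size factors from DESeq2 1.42.0, on expected counts rounded to whole numbers, as alternative scalings. R was version 4.3.3 and Python 3.11.15, with scipy 1.17.1 for intervals, pandas 2.3.3 and numpy 2.4.6 for tables, and matplotlib 3.10.9 for figures. Coding sequences were cut from GENCODE M21 transcripts. Tails come from the longest complete coding sequence with at least 5% of TPM in the mean of both quantifications, or the longest used one where none reached it.

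All members may be named. Values in both libraries are given for the 15 highest, paralog groups with at least 2 detected members, the 5 largest ratios each way, and members with unsettled transcripts; of partner lists, for the 3 highest, of which 1 is not reported here. The members' rule is by name, but the choice of this family and of the lists was made with earlier results of these data known. Alternatives were the second quantification, other scalings, minimums, pseudocounts and folds, and each library alone.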

Additional observations from a re-analysis of the deposited data

How the results depend on the processing

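Summed TPM of the family was 4678 in the second quantification and 5774 after rescaling over nuclear protein-coding genes; the family's share of nuclear protein-coding TPM was 0.624% and 0.644% in the second quantification against 0.568% and 0.587%. The members' median log2 ratio was 0.059 in the second quantification, 0.075 on TMM-scaled counts, 0.075 on DESeq2-scaled counts and 0.063 after rescaling. Members past 2-fold numbered 1 with no minimum beyond the floor (Rab44, with 5 and 3 counts), and 1 passed 1.5-fold (Rab7b, lower in replicate 2; background 1.91% lower and 0.372% higher). Of the partners, 1 passed 2-fold in the second quantification (Lrrk1), and 2 at a minimum of 20 counts and with no minimum (Dennd1c lower, Tbc1d10c higher); these genes were named after their values were seen. Detected members numbered 45 to 54 over thresholds of 5 and 0.5 TPM and the second quantification. Leaving out each library in turn gave 2463 to 2465 summed TPM, 50 to 51 detected members, 43 with a coding leader in both cases and 37 to 40 with a leader over 50%. Signs of the log2 ratio changed for 15 of 48 members under TMM scaling and 7 with the second quantification. The comparisons of retained-intron shares, summed coding sequences and libraries within 1.1-fold were chosen after seeing the data. No paired analysis was possible because there is 1 group. Counting intervals cover counting error only, and members with few counts have no usable ratio.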
